A study of Mus musculus with 9 samples.

Results

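The genes described are 36 genes of the G2 phase and of mitosis, from the cyclins and kinases that start division to the motors and scaffolds that part the chromosomes and the daughter cells. They were chosen by name for their function, with earlier results of these data known. All 36 were among the 24421 genes of the deposited count table. RNA was sequenced from 4T1 cells, a mouse mammary carcinoma line, in 3 conditions of 3 libraries each. The first was 3D spheroid culture on soft agar with no added palmitate, the second the same culture with 75 µM palmitate, and the third 2D monolayer culture with 75 µM palmitate. All cultures were kept for 5 days in medium with serum, which carries fatty acids of its own, and palmitate was given bound to albumin. Per the study's methods, cultures with no added fatty acid received albumin with a matching amount of ethanol. A 2D culture without added palmitate was not analysed here, so that the comparison of 3D with 2D holds only in the presence of palmitate, and that of palmitate only in 3D. All libraries were from 1 cell line, and the labels do not say whether the 3 libraries of a condition came from separate cultures, so that the p-values measure the spread between these libraries, which may be technical.

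Entry into mitosis is driven by CDK1 bound to cyclin A or cyclin B, with the Aurora and Polo-like kinases acting beside it. The spindle checkpoint holds back the anaphase-promoting complex (APC/C) until every kinetochore is attached, and the complex then marks securin and the cyclins for destruction. Most of these genes are transcribed late in the cycle, through the MMB complex of B-MYB with MuvB proteins and through FOXM1, and are repressed in resting cells by the related DREAM complex. They are therefore widely read as markers of dividing cells, and in bulk RNA fewer cells in mitosis cannot be told apart from less RNA of these genes per cell.

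The libraries held 6595514 to 31177756 counts, the smallest being replicate 3 of the 3D cultures with palmitate. The share of counts on Rn45s, the ribosomal RNA precursor, lay between 1.77% and 5.38%. All 36 mitosis genes passed the filter on low counts, as did 12575 genes in all, and a mitosis gene had 239 counts (Cdc25c) to 40224 counts (Mki67) in a library. Together the 36 took 0.825% to 0.982% of a library's counts. Levels are given below as CPM, counts of a gene relative to all counts of its library, scaled by edgeR's TMM factors. Of the markers of epithelial cells, 7 of 8 were expressed, with a summed level of 3250 to 4677 CPM, Krt5 having at most 1 count. Fibroblast markers summed to 32.9 to 110 CPM, of which Pdgfra alone gave 29.2 to 109 CPM, and Col3a1 and Lum were at 0 in every library. Endothelial markers summed to 0.152 to 0.654 CPM. Immune markers summed to 7.26 to 28.3 CPM, mostly Cd68, with Cd3e and Adgre1 at 0.

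The sequences in front of these genes carry recurring letters. The cell cycle genes homology region (CHR), the element read by DREAM and MMB, is spelled TTTGAA here, with the variants TTCGAA and, a palindrome, TTTAAA counted as well. The box read by NF-Y is spelled CCAAT. Both were searched on both strands of a window of 300 bases, from 250 before to 50 after the RefSeq start (GRCm38.p6). A window was found for 29 of the 36 genes, which had 31 windows between them, and none for Ccna2, Cdc25c, Aurkb, Kif20a, Tpx2, Dlgap5 and Foxm1. Of the 31 windows, 26 (83.9%) held one of the CHR spellings, against 28.8% of all 32851 windows and 20.9% of the 12160 windows of the genes tested. TTTGAA was found in 71%, against 17.9% of all windows. CCAAT was in 22 (71%), against 37.4% of all windows, and 15 (48.4%) held it at least 2 times, against 11.7%. Such matches describe letters and are not shown to be bound. Shown are the 4 windows of smallest p, in the comparison of 3D with 2D below, among the genes whose window holds a CHR spelling. Pttg1 and Mybl2, of smaller p, had neither the CHR spellings nor CCAAT in their windows and are not shown. The sequences run 5′ to 3′ with the CHR and CCAAT letters of either strand in capitals.
Plk1, chr7:122159185-122159484, plus strand: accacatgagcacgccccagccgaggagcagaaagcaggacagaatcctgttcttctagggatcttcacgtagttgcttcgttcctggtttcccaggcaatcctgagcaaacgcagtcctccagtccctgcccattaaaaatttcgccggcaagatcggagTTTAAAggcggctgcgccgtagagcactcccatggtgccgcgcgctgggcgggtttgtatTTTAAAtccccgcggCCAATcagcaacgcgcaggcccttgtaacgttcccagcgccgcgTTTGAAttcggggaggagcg
Birc5, chr11:117848987-117849286, plus strand: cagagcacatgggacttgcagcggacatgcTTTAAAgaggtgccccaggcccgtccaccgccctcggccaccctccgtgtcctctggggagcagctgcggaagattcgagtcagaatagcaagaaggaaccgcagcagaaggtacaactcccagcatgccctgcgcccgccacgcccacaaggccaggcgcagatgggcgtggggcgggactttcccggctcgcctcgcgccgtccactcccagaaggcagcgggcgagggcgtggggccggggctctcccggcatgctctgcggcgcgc
Ube2c, chr2:164769679-164769978, plus strand: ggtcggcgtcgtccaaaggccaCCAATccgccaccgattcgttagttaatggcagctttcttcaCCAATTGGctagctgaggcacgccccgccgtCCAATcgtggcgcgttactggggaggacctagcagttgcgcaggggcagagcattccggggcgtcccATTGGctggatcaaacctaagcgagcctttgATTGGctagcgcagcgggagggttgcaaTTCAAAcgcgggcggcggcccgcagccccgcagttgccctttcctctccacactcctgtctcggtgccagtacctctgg
Ccnb2, chr9:70421505-70421804, minus strand: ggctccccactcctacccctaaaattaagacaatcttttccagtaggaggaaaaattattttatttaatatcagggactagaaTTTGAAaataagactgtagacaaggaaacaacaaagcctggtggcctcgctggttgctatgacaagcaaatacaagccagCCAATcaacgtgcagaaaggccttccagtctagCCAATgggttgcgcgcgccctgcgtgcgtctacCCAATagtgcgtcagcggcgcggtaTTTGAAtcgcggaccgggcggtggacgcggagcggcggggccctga
In the window of Plk1, TTTAAA began 89 and 29 bases before the start, CCAAT 14 bases before it, and TTTGAA 31 bases after the start. The window of Birc5 held TTTAAA alone, 220 bases before the start. The Ube2c window held 6 CCAAT boxes, 3 of them on the other strand (ATTGG) and one pair overlapping as CCAATTGG, with TTTGAA on the other strand (TTCAAA) 29 bases before the start. In Ccnb2, 3 CCAAT boxes began 87, 54 and 21 bases before the start, and TTTGAA was found 167 bases before and 5 bases after it.

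The first comparison asked how the mitosis genes differed between 3D and 2D cultures that both received palmitate. Of the 36 genes, 21 (58.3%) were lower in 3D, 4 were higher and 11 were not called, at an adjusted p under 0.05 in edgeR's quasi-likelihood test. Over all 12575 genes tested, 33.9% were lower and 34.5% higher, so that the share of lower genes was above that of all genes and the share of higher ones (11.1%) below it. The share called in either direction was 69.4%, close to the 68.3% of all genes. The differences were small: the median log2 fold change of the 36 was -0.22, that of all genes 0.01, and the members ran from -0.79 (Pttg1) to 0.41 (Cenpf). Counted by libraries that did not overlap, 21 genes were lower in 3D and 4 higher, where 34.8% of all genes were lower and 34.6% higher.

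**Figure D1:**
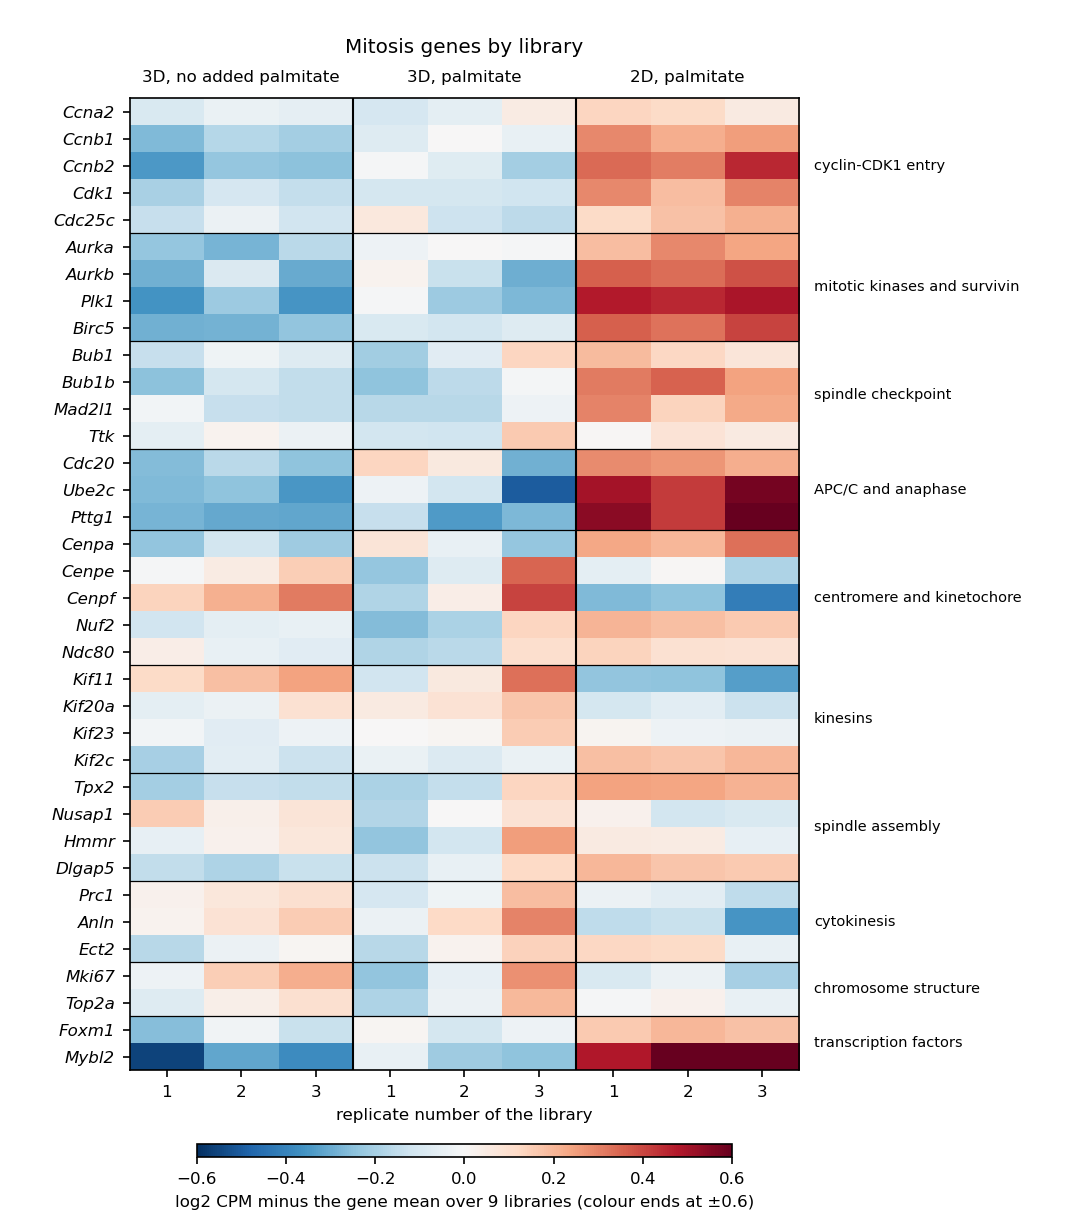
Level of the 36 mitosis genes in each of the 9 libraries, as log2 CPM minus the mean of the gene over the 9 libraries, with genes in rows by role and libraries in columns by condition. The colours end at -0.6 and 0.6; most rows are red in the 2D libraries, and replicate 3 of the 3D cultures with palmitate is red for Cenpe, Cenpf and Kif11 and blue for Cdc20 and Ube2c.

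The securin gene and the genes of the APC/C gave the largest falls of any role, with 3 of 3 lower and a median log2 fold change of -0.68. Pttg1 (chr11:43420250-43426251, GRCm38) encodes securin, which keeps separase inactive until anaphase. It was at 106, 97.8 and 117 CPM in the 2D libraries, at 66.4, 57.7 and 60.6 CPM in 3D with palmitate and at 60.1, 59.1 and 58.7 CPM in 3D without. The 2D libraries lay apart above all 6 of the 3D libraries, and the level in 3D with palmitate was 42.2% lower than in 2D (log2 fold change -0.79, SE 0.0770, adjusted p = 4.30e-07, edgeR). Ube2c, the ubiquitin-conjugating enzyme that works with the APC/C, was at 214, 202 and 225 CPM in 2D, 148, 140.1 and 107 CPM in 3D with palmitate and 126, 128 and 119 CPM in 3D without. Its groups in 2D and 3D did not overlap either (log2 fold change -0.68, SE 0.0949, adjusted p = 1.60e-05), although replicate 3 was well below the other 3D libraries with palmitate. Of the exonic bases of Ube2c, 22.8% overlap Tnnc2 on the other strand, and whether counting used the strand is not stated in the sources used here. Cdc20, which activates the APC/C, fell by less (log2 fold change -0.27, SE 0.0860, adjusted p = 0.0127).

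Transcripts of the kinases that carry the cell through mitosis were lower in 3D in 4 of 4 cases, counting survivin, the partner of Aurora B, with a median log2 fold change of -0.47. Plk1 (chr7:122159439-122169873), whose product acts at centrosomes, kinetochores and the midbody, was at 172, 169 and 173 CPM in 2D, 123, 106 and 102 CPM in 3D with palmitate, and 96.2, 106 and 96.3 CPM in 3D without. This was a fall by 0.63 on the log2 scale (SE 0.0736, adjusted p = 3.07e-06), with no overlap of the groups. Birc5, encoding survivin, was at 193, 189 and 199.7 CPM in 2D, 142, 139.9 and 143 CPM in 3D with palmitate, and 124, 124 and 128 CPM in 3D without. The replicates of Birc5 lay close together in each condition, and its log2 fold change was -0.46 (SE 0.0563, adjusted p = 5.02e-06). Aurkb, the centromeric Aurora kinase, had a log2 fold change of -0.48 (SE 0.0810, adjusted p = 0.000108). Aurka, which acts on the spindle poles, changed by -0.25 (SE 0.0597, adjusted p = 0.00180).

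Of the 5 genes of the cyclin and CDK1 switch, 4 were lower in 3D, with a median log2 fold change of -0.29. Ccnb2, a B-type cyclin, was at 208, 204 and 225 CPM in 2D, 164, 156 and 143 CPM in 3D with palmitate, and 130, 140 and 139 CPM in 3D without. Cdk1, the kinase itself, was at 327, 305 and 329 CPM in 2D, 249, 249 and 246 CPM in 3D with palmitate, and 234, 250 and 242 CPM in 3D without. In both genes each 2D library was above each 3D library, and the log2 fold changes were -0.46 for Ccnb2 (SE 0.0686, adjusted p = 3.48e-05) and -0.37 for Cdk1 (SE 0.0584, adjusted p = 5.67e-05). Ccnb1 changed by -0.29 (adjusted p = 0.000519) and Cdc25c, the phosphatase that activates CDK1, by -0.22 (adjusted p = 0.0149). Of the exonic bases of Cdc25c, 12.7% overlap a gene on the other strand, and of those of Ccna2 12.5%. Ccna2, the cyclin of S phase and G2, missed the threshold (log2 fold change -0.14, adjusted p = 0.0532), though its 3D and 2D groups did not overlap.

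Both transcription factors of the late cycle were lower in 3D. Mybl2 (chr2:163054687-163084688), which encodes B-MYB, was at 65.3, 71.7 and 73.1 CPM in 2D, 45.4, 40.3 and 39.5 CPM in 3D with palmitate, and 31.8, 37.7 and 36 CPM in 3D without. Its log2 fold change of -0.74 (SE 0.0816, adjusted p = 1.67e-06) was the second largest fall of the 36, after Pttg1, and its groups did not overlap. Foxm1 was at 185, 191 and 188 CPM in 2D against 168, 154 and 162 CPM in 3D with palmitate and 139, 164 and 151 CPM in 3D without, a log2 fold change of -0.22 (SE 0.0677, adjusted p = 0.00999).

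Among the 4 genes of the spindle checkpoint, 2 were lower in 3D. Bub1b, encoding BUBR1, an inhibitor of the APC/C, was at 189, 195 and 180.1 CPM in 2D, 129, 136 and 151 CPM in 3D with palmitate, and 128, 142 and 138 CPM in 3D without (log2 fold change -0.45, SE 0.0707, adjusted p = 5.76e-05). Mad2l1, whose product MAD2 binds CDC20, was at 130.3, 116 and 124 CPM in 2D, 94.6, 94.7 and 104 CPM in 3D with palmitate, and 105, 96.5 and 95.8 CPM in 3D without. In neither gene did 2D and 3D libraries overlap, and Mad2l1 changed by -0.34 (log2; SE 0.0682, adjusted p = 0.000420). The checkpoint kinases Bub1 and Ttk did not pass the threshold, with log2 fold changes of -0.18 (adjusted p = 0.0562) and -0.08 (adjusted p = 0.340). Bub1 was at 158, 151 and 146 CPM in 2D and at 119.8, 132 and 151 CPM in 3D with palmitate, so that its groups overlapped through replicate 3.

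**Figure D2:**
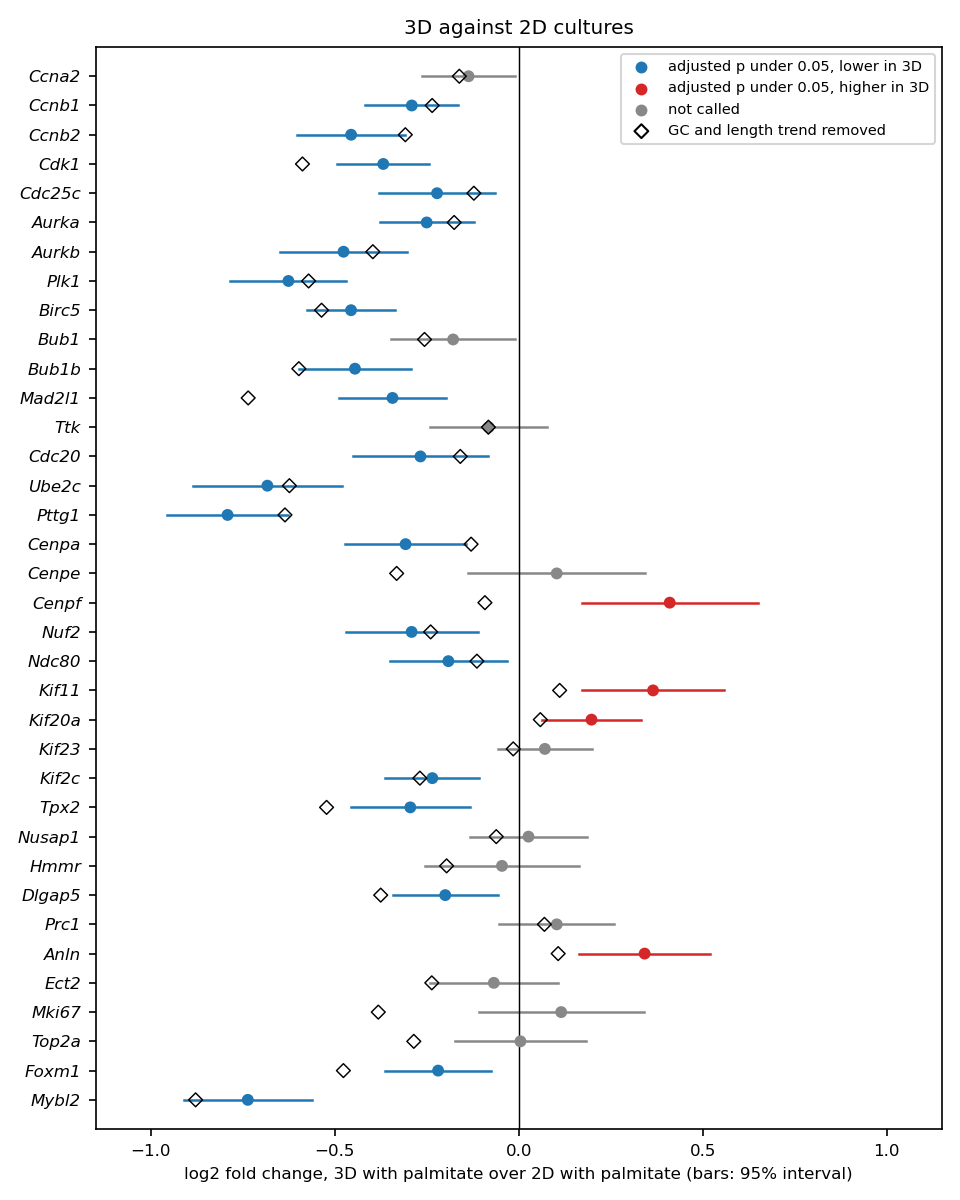
Log2 fold change of each mitosis gene in 3D against 2D cultures, both with palmitate, on the x axis, with points coloured by call and bars for the 95% interval; open diamonds give the fold change after the trend with transcript length and GC content over all genes was removed. Of the 36 genes, 21 are lower and 4 higher, and the diamonds of Cenpe, Cenpf, Mki67, Top2a, Kif23 and Nusap1 stand on the other side of 0 from their points.

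The centromere and kinetochore genes moved in both directions. Of 5, 3 were lower in 3D and 1 was higher. Cenpa, the histone variant that marks the centromere, was at 180.3, 176 and 193 CPM in 2D, 162, 149 and 131 CPM in 3D with palmitate, and 130.2, 142 and 133 CPM in 3D without (log2 fold change -0.31, SE 0.0771, adjusted p = 0.00258). Nuf2 and Ndc80, subunits of the complex that grips microtubules, were lower by 0.29 and 0.19 on the log2 scale (adjusted p = 0.00647 and 0.0339), the groups of Ndc80 overlapping. Cenpf (chr1:189640606-189688086), a large coiled-coil protein of the kinetochore, went the other way. It was at 401, 407 and 361 CPM in 2D, 425, 496 and 638 CPM in 3D with palmitate, and 529, 559 and 598 CPM in 3D without. Every 3D library was above every 2D library, over a wide range in 3D with palmitate, and the log2 fold change was 0.41 (SE 0.112, adjusted p = 0.00463). Cenpe, the kinetochore kinesin, was not called (log2 fold change 0.10, adjusted p = 0.432).

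Among the kinesins, 2 of 4 were higher in 3D and 1 was lower. Kif11 (chr19:37376403-37421859), the Eg5 motor that pushes the spindle poles apart, was at 205, 205 and 192 CPM in 2D, 224, 251 and 304 CPM in 3D with palmitate, and 262, 274 and 286 CPM in 3D without. Its log2 fold change was 0.36 (SE 0.0903, adjusted p = 0.00234), with no overlap. Kif20a, the motor that brings Aurora B to the midzone, rose by 0.20 (SE 0.0630, adjusted p = 0.0121), but 29.3% of its exonic bases overlap Cdc23 on the other strand. Kif2c, which takes microtubules apart at the centromere, was at 106, 104 and 107 CPM in 2D, 90.6, 88.0 and 90.7 CPM in 3D with palmitate, and 81.1, 89.2 and 85.0 CPM in 3D without. It fell by 0.23 on the log2 scale (SE 0.0596, adjusted p = 0.00279), with no overlap. Kif23 of the midzone was not called (log2 fold change 0.07, adjusted p = 0.307).

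Spindle assembly genes were lower in 2 of 4 cases. Tpx2, the activator of Aurora A on microtubules, was at 297, 297 and 290.1 CPM in 2D, 220.4, 228 and 275 CPM in 3D with palmitate, and 218, 229 and 227 CPM in 3D without (log2 fold change -0.29, SE 0.0757, adjusted p = 0.00305). Dlgap5, a stabiliser of kinetochore fibres, was at 121, 118 and 118 CPM in 2D, 96.3, 102 and 114 CPM in 3D with palmitate, and 94.9, 92.5 and 95.8 CPM in 3D without. The 2D libraries were the highest of both genes, by a narrow margin over replicate 3, and the fall of Dlgap5 was by 0.20 on the log2 scale (adjusted p = 0.0158). Nusap1 and Hmmr, both microtubule-binding proteins, had log2 fold changes of 0.03 and -0.05 and were not called. In cytokinesis, Anln, encoding the scaffold anillin of the contractile ring, was higher in 3D, at 728, 809 and 916 CPM with palmitate and 758, 792 and 829 CPM without, against 669.9, 680.2 and 583 CPM in 2D (log2 fold change 0.34, SE 0.0834, adjusted p = 0.00212). Prc1, which bundles midzone microtubules, was at 278, 273 and 257 CPM in 2D, 266, 279.9 and 325 CPM in 3D with palmitate, and 290.1, 299 and 305 CPM in 3D without. Its groups overlapped and it was not called (log2 fold change 0.10, 95% interval -0.05 to 0.26), and 11.1% of its exonic bases overlap a gene on the other strand. Ect2, the exchange factor that starts the furrow, had a log2 fold change of -0.07 (adjusted p = 0.476).

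Neither of the chromosome genes, both common markers of proliferating cells, was called. Mki67 (chr7:135689784-135716361), which encodes Ki-67 of the mitotic chromosome surface, was at 1238, 1289 and 1150 CPM in 2D, 1117, 1275 and 1593 CPM in 3D with palmitate, and 1293, 1463 and 1532 CPM in 3D without. The groups overlapped and the log2 fold change was 0.12, with a 95% interval of -0.11 to 0.34 (adjusted p = 0.343). Top2a (chr11:98992943-99024189), the topoisomerase that disentangles sister chromatids, was at 1184, 1212 and 1154 CPM in 2D, at 1045, 1160 and 1359 CPM in 3D with palmitate, and at 1126, 1217 and 1271 CPM in 3D without. Its log2 fold change of 0.00 had an interval of -0.17 to 0.18 (adjusted p = 0.965), and the 2D values lay inside the range of the 3D ones.

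**Figure D3:**
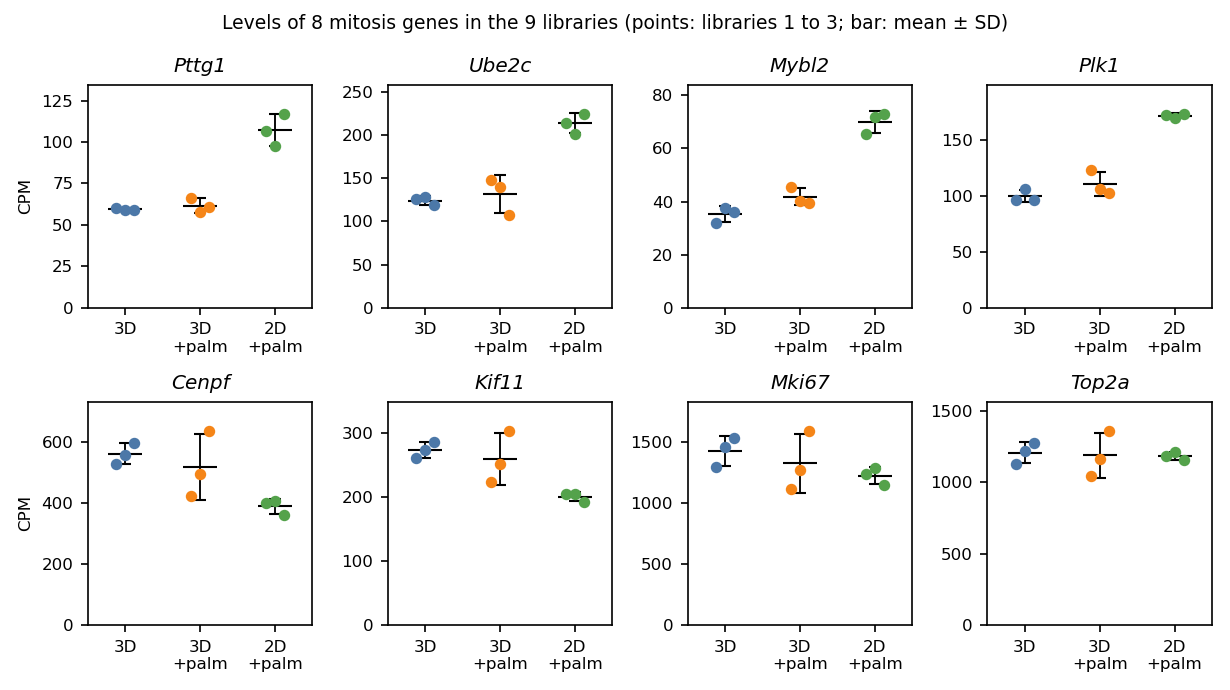
Level in CPM of 8 mitosis genes in each library of the 3 conditions, points being libraries and bars the mean with the SD over 3 libraries. Pttg1, Plk1 and Mybl2 are highest in the 2D libraries without overlap, Cenpf and Kif11 are lowest there, and the groups of Mki67 overlap.

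Transcript length and base composition moved with these fold changes. Over the 36 genes, the Spearman correlation of the fold change with the length of the longest transcript was 0.56 and with its GC content -0.53, against 0.32 and -0.06 over the 12504 genes with both values, as a description across genes that share their libraries. The 9 shortest (1466 to 2199 bases), Pttg1, Ube2c and Plk1 among them, were lower in 3D in 9 of 9 cases, with a median log2 fold change of -0.46. Of the 9 longest (4375 to 11130 bases), which include Cenpf, Mki67, Top2a and Kif11, 3 were higher and 3 lower, with a median of 0.10. When the trend with length and GC content was fitted over all genes and taken out, 25 mitosis genes were lower in 3D and 1, Kif11, was higher (log2 fold change 0.11, adjusted p = 0.0483). Over all genes, 72.1% were then called, 41.5% lower and 30.6% higher, and the median log2 fold change of all genes had moved from 0.01 to -0.08, that of the 36 from -0.22 to -0.25. Mki67 then stood at -0.38 (adjusted p = 1.28e-05), Top2a at -0.29 (adjusted p = 3.63e-05) and Cenpe at -0.33 (adjusted p = 4.37e-05), all called lower. Cenpf stood at -0.09, close to that median of all genes, and was not called (adjusted p = 0.138), and the calls of Anln, Kif20a, Cenpa, Cdc25c and Ndc80 were lost too. Of the 25 genes called, 19 kept their call in the same direction, Pttg1, Mybl2, Ube2c and Plk1 among them. The order of the falls changed. Mybl2 (-0.88) then had the largest of the 36, followed by Mad2l1 (-0.74, from -0.34), Pttg1 (-0.64) and Ube2c (-0.62), while Cdc20 stood at -0.16. With the trend taken out, the fold changes of the 36 genes still had a Spearman correlation of -0.36 with GC content. Their correlation with length was -0.03. Values of RNA integrity were not used here, and its part in the result was not tested.

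**Figure D4:**
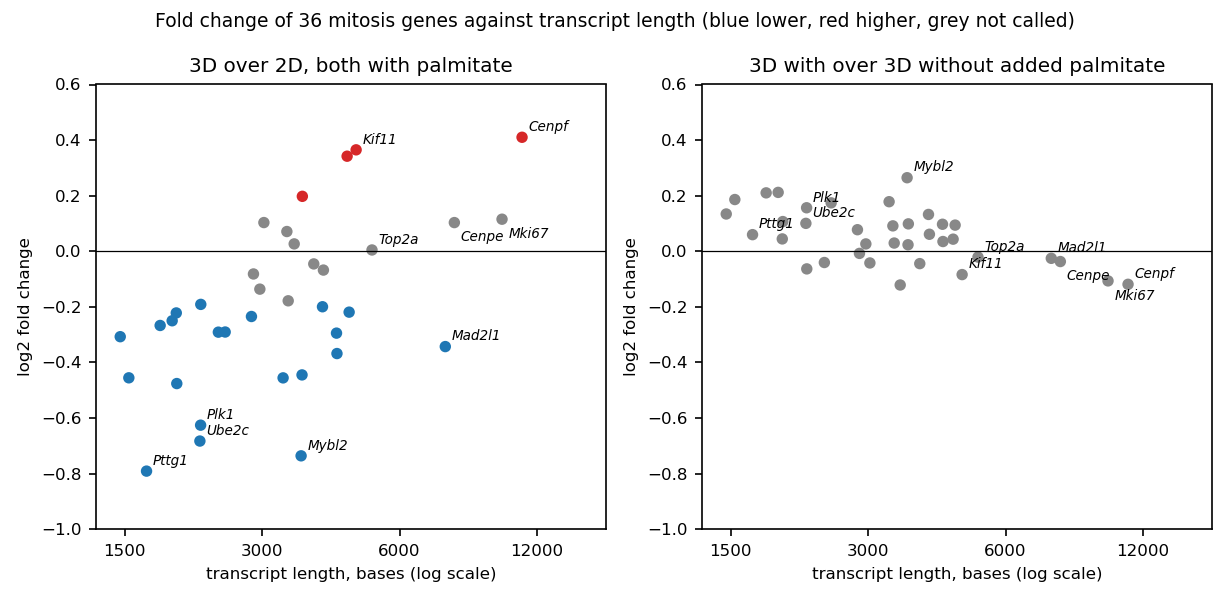
Log2 fold change of the 36 mitosis genes against the length of the longest transcript in bases on a log axis, for 3D against 2D with palmitate (left) and for 3D with against without added palmitate (right). Short transcripts such as Pttg1, Ube2c and Plk1 lie lowest on the left and long ones such as Cenpf highest, and on the right no gene is called.

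When 1 library in turn was left out, between 17 and 25 genes were called lower in 3D and 4 or 5 higher, newly called ones included. Calls of Cdc25c, Dlgap5, Foxm1 and Ndc80 were lost in 1 or more of these fits. Without replicate 3 of 3D with palmitate, Ccna2, Bub1, Ttk and Hmmr were called lower as well, at -0.18, -0.27, -0.17 and -0.19 on the log2 scale. Without replicate 1 of that condition, Mki67 was called higher in 3D (log2 fold change 0.22). At a minimum fold change of 0.5 on the log2 scale, 4 of the 36 genes were lower, Pttg1, Mybl2, Ube2c and Plk1, and none was higher. Over all genes, 19.3% were lower and 21.4% higher. The share of lower genes among the 36 was thus below that of all genes here, the reverse of the result without a minimum.

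Genes lower in 3D were found both with and without these letters in their promoter windows. Of the 24 genes with a window that held a CHR spelling, 12 were lower and 3 higher in 3D, with a median log2 fold change of -0.18. Of the 5 without one, Mad2l1, Pttg1, Nuf2, Nusap1 and Mybl2, 4 were lower, with a median of -0.34. With CCAAT, 9 of 20 genes were lower (median -0.13), and without it 7 of 9 (median -0.29). No test of these differences was made.

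The second comparison asked what added palmitate changed in 3D culture. No mitosis gene of 36 was called by edgeR at an adjusted p under 0.05, where 2.19% of all genes were, 1.38% higher and 0.811% lower, and DESeq2 called none either. At an unadjusted p under 0.05, 6 of the 36 differed, all higher with palmitate, where 10.3% of all genes were higher and 6.99% lower. The median log2 fold change of the 36 was 0.05. The 95% intervals of single genes reached as low as -0.36 (Cenpf) and as high as 0.45 (Mybl2).

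The 6 genes were Aurka, Birc5, Mybl2, Ccnb1, Ccnb2 and Cdc20. Aurka was at 100.1, 102 and 102 CPM in 3D with palmitate and 87.0, 84.3 and 91.2 CPM without, with no overlap (log2 fold change 0.21, unadjusted p = 0.00335, adjusted p = 0.0860, edgeR). The values of Birc5 (0.18, adjusted p = 0.119) and Mybl2 (0.26, adjusted p = 0.121) were of the same order. Ccnb1 was at 80.6, 85.1 and 82.4 CPM with and 70.7, 75.5 and 73.6 CPM without palmitate, a log2 fold change of 0.17 (adjusted p = 0.149). Each of these 4 genes was higher in 3 of 3 libraries than in any without palmitate, as were Ccnb2, Kif23 and Dlgap5. These 7 genes made up 19.4% of the 36, none being lower without overlap, where 10.4% of all genes were higher and 8.19% lower. In Mki67, values of 1117, 1275 and 1593 CPM with palmitate enclosed those of 1293, 1463 and 1532 CPM without.

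**Figure D5:**
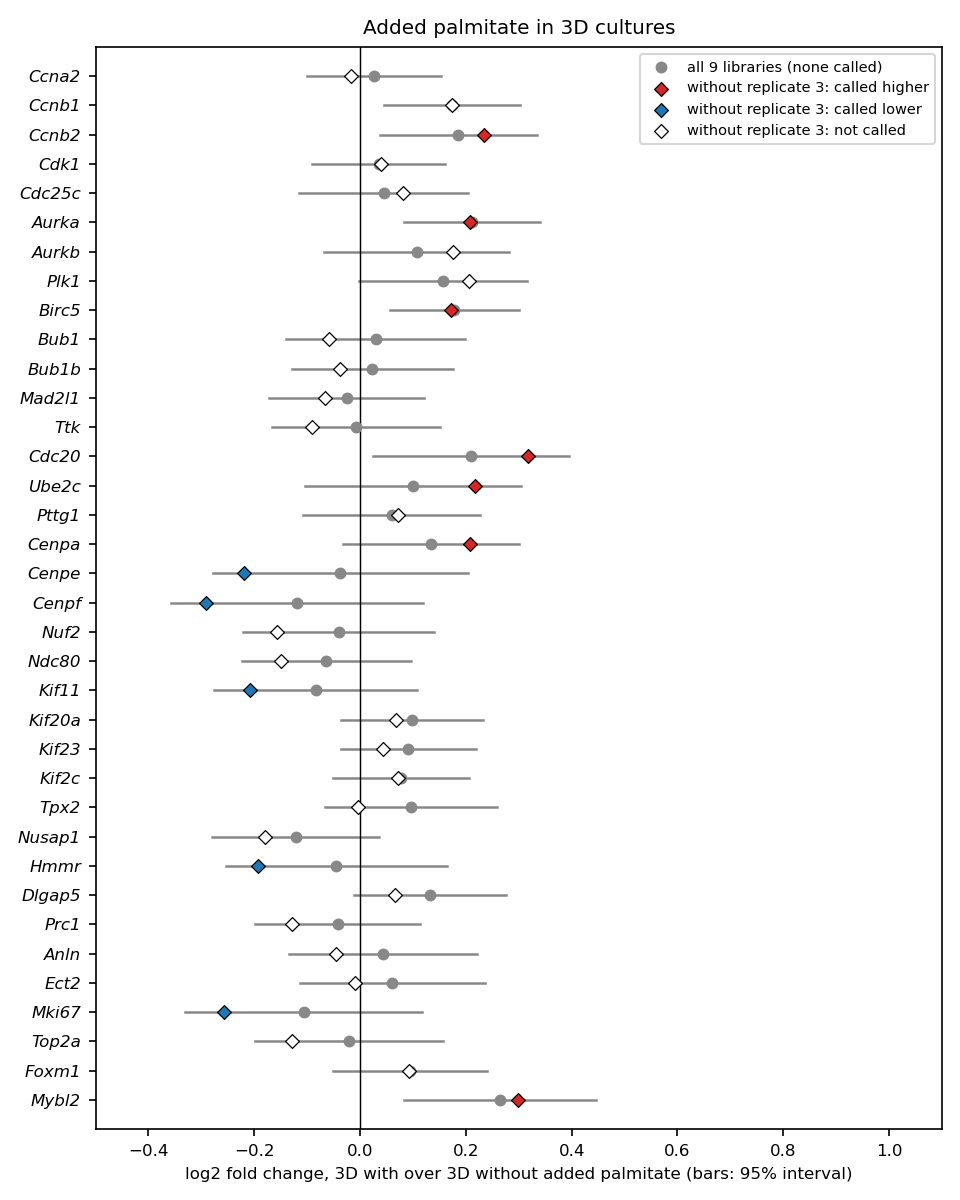
Log2 fold change of each mitosis gene in 3D cultures with against without added palmitate on the x axis, grey points and 95% interval bars being from all 9 libraries, where none is called. Diamonds leave out replicate 3 of the cultures with palmitate, red for 7 genes then called higher and blue for 5 called lower.

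The answer depended on 1 library, replicate 3 of the 3D cultures with palmitate, the one with the fewest counts. Replicates 1 and 2 of that condition did not agree closely either. They differed by a chi-square per gene of 16.4, against 3.90 to 9.30 between replicates of the other conditions. Their shares of Rn45s were 3.14% and 5.38%. In it the 9 longest mitosis genes had a median deviation of 0.273 (log2) from their means over the 9 libraries, against -0.165 and -0.0483 in replicates 1 and 2. The 9 shortest deviated by -0.268 there, against -0.00535 and -0.110. Without that library 12 of the 36 genes (33.3%) were called, 7 higher and 5 lower with palmitate, where 14.9% of all genes were called, 8.56% higher and 6.3% lower. The higher ones were Cdc20 (log2 fold change 0.32, adjusted p = 0.00229), Mybl2 (0.30), Ccnb2 (0.23), Ube2c (0.22), Aurka (0.21), Cenpa (0.21) and Birc5 (0.17), with transcripts of 1466 to 3651 bases. The lower ones were Cenpf (-0.29, adjusted p = 0.0139), Mki67 (-0.26), Cenpe (-0.22), Kif11 (-0.21) and Hmmr (-0.19), with transcripts of 3892 to 11130 bases. The fold changes of the 36 genes in all 9 libraries had a Spearman correlation of -0.52 with length and of 0.70 with GC content, against -0.24 and 0.24 over all genes. Without replicate 3 of 3D with palmitate, the correlation of the 36 genes with length was -0.66. With the trend over all genes taken out of all 9 libraries, Ccnb1, Birc5 and Mybl2 were called higher with palmitate. Their log2 fold changes were 0.18, 0.17 and 0.24 (adjusted p = 0.0390, 0.0255 and 0.0334, edgeR). Over all genes 7.9% were then called, 4.62% higher and 3.28% lower. The fold changes of the 36 genes still had a Spearman correlation of 0.47 with GC content and -0.29 with length. Over all genes these were 0.01 and -0.02.

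Set in order, the mean levels of 22 of the 36 genes were lowest in 3D without palmitate, intermediate in 3D with palmitate and highest in 2D. The share of all genes with this order was not computed. In 4 more, 2D was highest and 3D with palmitate lowest. The reverse order, with 2D lowest and 3D without palmitate highest, was found in 7 genes, among them Cenpf, Kif11 and Mki67. The remaining 3 genes had 3D with palmitate highest. Between the neighbouring 3D groups none of the 36 genes was called by edgeR over all 9 libraries, though the groups of 7 did not overlap. With the trend in length and GC content removed, 3 were called. The values of 3D with palmitate enter both comparisons. Per kilobase of the longest transcript, the most abundant was Top2a, at 227 CPM per kilobase in 2D, ahead of Ccna2 at 148, Anln at 139.9 and Ccnb2 at 139. The least abundant in 2D were Mad2l1 at 16.4 CPM per kilobase, whose longest transcript has 7557 bases, and Mybl2 at 19.2.

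Further genes of division, from lists drawn up by function with earlier results of these data known, also differed between 3D and 2D in both directions. Of 124 further genes of kinetochores, condensin and cohesin, the APC/C, the spindle and mitotic entry and exit, 56 (45.2%) were lower in 3D and 24 (19.4%) higher, with a median log2 fold change of -0.13, where 33.9% of all genes were lower and 34.5% higher. Called in either direction were 64.5% of them, close to the 68.3% of all genes. Among 36 other centromere and kinetochore genes 19 were lower and 8 higher, and among 30 other kinesins, spindle and cytokinesis genes 14 were lower and 2 higher. Of 18 other APC/C genes 8 were lower and 3 higher, of 22 genes of mitotic entry and exit 10 and 5, and of 18 condensin and cohesin genes 5 (27.8%) and 6 (33.3%), shares near those of all genes. The regulators of mitosis genes, namely DREAM, E2F and NF-Y subunits, gave 5 (22.7%) lower and 7 (31.8%) higher of 22 (median 0.06). DNA replication genes gave 21 (52.5%) lower and 1 higher of 40 (median -0.20).

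The list of CDK inhibitors and growth arrest genes leaned the other way. Of its 18 genes 14 were tested, and 10 (71.4%) of these were higher in 3D and 3 (21.4%) lower. Among all genes 34.5% were higher and 33.9% lower. The fold changes of the 14 had a median of 0.37 on the log2 scale. Whether each listed gene slows the cycle in these cells was not tested, which includes Gas2l3 (0.36) and Ccng1 (0.22), both among the 10. Cdkn1a, encoding the CDK inhibitor p21, was at 19.2 ± 1.19 CPM (SD, n = 3) in 2D and 87.3 ± 4.28 CPM in 3D with palmitate, a log2 fold change of 2.20 (SE 0.0731, adjusted p = 4.66e-12, edgeR). It was at 73.9 ± 3.04 CPM in 3D without palmitate. Gadd45b, a stress-induced gene of the same list, was lower, at 119 ± 16 CPM in 2D against 16.9 ± 3.44 CPM (log2 fold change -2.75, adjusted p = 3.17e-10). Of 9 genes of the G1 list, 6 (66.7%) were higher in 3D and 2 (22.2%) lower. Cdk6, a kinase partner of the D cyclins, rose by 1.67 on the log2 scale (adjusted p = 6.87e-09). Myc, the growth-promoting transcription factor, fell by 1.47 (adjusted p = 3.19e-10). Between 3D with and without palmitate, Rrm2, a subunit of ribonucleotide reductase, was the only gene of these 9 lists to be called, rising by 0.37 on the log2 scale (SE 0.0621, adjusted p = 0.00711).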

How the data were processed

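RNA from 9 libraries of 4T1 cells was analysed, 3 for each of 3 conditions. The authors deposited 1 table of raw counts per gene, with 24421 gene symbols. Per the labels and the methods, reads were checked with FastQC 0.11.9, aligned with HISAT2 2.1.0 and counted with HTSeq; the strand setting and the annotation release are not given in the sources used here. Genes were kept by edgeR's filterByExpr, scaled by TMM and fitted with edgeR 4.0.16 (quasi-likelihood, 3 conditions in 1 model, R 4.3.3) in 2 comparisons, with Benjamini-Hochberg adjustment over all 12575 genes and a threshold of 0.05. Alternatives used DESeq2 1.42.0, other scalings and filters, a replicate block and the Rn45s share. A spline trend in length and GC content was also removed, and each library was left out in turn. The scripts were tested on simulated data. The members and gene lists were chosen with earlier results of these data known. Named in full were the 2 members with the smallest p in each of the 10 roles, the other members by range, count or value, and over the other lists, in each comparison, the 2 called genes of least p in either direction. Lengths, exon overlaps and coordinates were from GENCODE M21 (GRCm38), matched by symbol for 23376 genes and by synonym for 657; longest transcripts were used. Replicates of a condition differed by more than sampling noise (chi-square per gene 3.90 to 19.7), most in 3D with palmitate (16.4 to 19.7).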

Additional observations from a re-analysis of the deposited data

How the results depend on the processing

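The comparison of 3D with 2D held under most settings: 20 to 25 mitosis genes were lower and 1 to 4 higher, apart from the minimum fold change of 0.5 (log2), which left 4 lower, 0 higher and 5113 genes called in all. Removing the trend with length and GC content left 1 higher and turned the sign of Cenpe (-0.33), Cenpf (-0.092), Mki67 (-0.38) and Top2a (-0.29), and of Kif23 (-0.02) and Nusap1 (-0.06), which were called in neither fit. Leaving out 1 library gave 17 to 25 lower and 4 to 5 higher, with 7977 to 8866 genes called in all. For palmitate, 0 mitosis genes were called except with the trend removed (3 higher) and without replicate 3 of 3D with palmitate (7 higher, 5 lower). The count over all genes, 275, was unsteady. It was 617 with no filter, 77 with the 2 groups alone, 994 with the trend removed, 44 with the Rn45s share as covariate, and 119 at the minimum fold change. Without replicate 1, 2 or 3 of 3D without palmitate it was 93, 75 or 71, and without those of 3D with palmitate 148, 78 or 1901, while mitosis genes ranged from 0 to 7 higher and 0 to 5 lower. Of all genes called with palmitate, 62.9% were higher, against 46.7% when scaled by library size only and 52.7% without a filter. The median fold change of the mitosis genes stayed between -0.25 and -0.19 for culture and between 0.02 and 0.07 for palmitate.

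With the replicate number as a block, 20 mitosis genes were lower and 4 higher in 3D, Ndc80 being lost, and 111 genes and no mitosis gene were called for palmitate. Libraries of the same number did not deviate together (correlations from -0.238 to 0.145, median -0.0514, against a median of 0.0267 for other pairs), so the numbers were not taken to pair them. With 3 libraries a condition, the smallest fall called among the mitosis genes was -0.19 (log2, Ndc80).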
